A study of Homo sapiens with 16 samples.

Results

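The DUX4 genes of the 4q35 repeat array, together with their copies elsewhere in the genome, were examined by ChIP-seq in BJ-5ta cells, a line of human fibroblasts immortalized with telomerase. The regions were chosen by name and place: every transcription start site (TSS) window whose gene symbol begins with DUX4, and every peak region on chromosome 4 that starts at position 190000000 or beyond. This gave 55 of 272902 TSS windows and 2 of 16092 peak regions. Each window is 2000 bp wide. The 55 windows hold 51 distinct positions and 42 symbols, all 42 of which are in the RefSeq gene list. The choice was made with the read counts of these regions known, so their levels are given as a description without a test.

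The study asked whether LEO1, a subunit of the RNA polymerase II-associated factor 1 complex, affects dimethylation of lysine 9 on histone H3 (H3K9me2), which marks silent chromatin, in growing and quiescent fibroblasts. Wild-type cells and ΔLEO1 cells, in which CRISPR/Cas9 had been aimed at the start of LEO1, were grown in 10% serum or kept in 0.1% serum for 10 days to make them quiescent. The ΔLEO1 cells came from a single clone, so the genotype and the clone cannot be told apart. ChIP and input chromatin were sequenced in replicates A and B of each of the 4 combinations of genotype and serum, and all cells carried the immortalizing telomerase gene. The labels name the antibody only as H3, while the study's methods name H3K9me2. The ΔLEO1 ChIP library A in 10% serum held 54 reads over all TSS windows and was left out, which leaves 7 ChIP and 8 input libraries. ChIP comparisons that involve ΔLEO1 cells in 10% serum therefore rest on 1 library on that side, which was assumed to vary like the others. Nothing in the labels says whether the replicates were separate cultures, so p-values measure only the spread between these libraries.

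DUX4 encodes a homeobox transcription factor that is active in the early embryo and silent in most adult tissues. A copy of its reading frame lies in each unit of D4Z4, a GC-rich repeat arranged head to tail near the end of the long arm of chromosome 4, and a nearly identical array lies near the end of chromosome 10. In healthy cells the array is packed with DNA methylation and H3K9 methylation, and loss of this packing is linked to facioscapulohumeral muscular dystrophy. Further DUX4-like copies are scattered over other chromosomes, often near centromeres and on the short arms of acrocentric chromosomes.

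Promoter sequences are shown here for DUX4, because the window centred on its start carried almost no reads, and for the FRG2 family, whose members sit beside the arrays and show how much sequence the neighbourhoods share. The sequences are from RefSeq, assembly GRCh38.p14, and each runs through the 250 bases up to the base before the start, on the strand of the gene. That of FRG2B alone was shifted by 1 base from its listed start, to the place with the fewest mismatches to FRG2. In the DUX4 promoter (chr4:190173524-190173773, plus strand) capitals mark TACAA and GGGCGG, found by a search on both strands. TACAA begins 153 bases before the start. GGGCGG begins 221 and 148 bases before it, and the second of these follows directly on TACAA without overlap. Of 35116 promoters in the RefSeq table, 21.7% hold TACAA and 42.6% hold GGGCGG.
DUX4: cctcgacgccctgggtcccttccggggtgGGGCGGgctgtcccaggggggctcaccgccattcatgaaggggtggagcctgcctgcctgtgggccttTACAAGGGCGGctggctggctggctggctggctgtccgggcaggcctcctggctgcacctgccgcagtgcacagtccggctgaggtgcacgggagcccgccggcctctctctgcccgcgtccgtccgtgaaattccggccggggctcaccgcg

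These 250 bases hold 20 CpG dinucleotides, against a median of 11 over all promoters, and 32.4% of promoters hold as many or more. Their GC content is 72.8%, against a median of 58.0%, and 14.7% of promoters reach it. The DUX4 promoter was thus GC-rich, but not unusual in CpG number.

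FRG2 lies on the centromeric side of the 4q35 array (chr4:190027257-190027506, minus strand), FRG2B on that of the 10q26 array (chr10:133626795-133627044, minus strand) and FRG2C beside the DUX4-like copy DUX4L26 on chromosome 3 (chr3:75664078-75664327, plus strand). Capitals mark the 8 bases at which FRG2C differs from FRG2.
FRG2: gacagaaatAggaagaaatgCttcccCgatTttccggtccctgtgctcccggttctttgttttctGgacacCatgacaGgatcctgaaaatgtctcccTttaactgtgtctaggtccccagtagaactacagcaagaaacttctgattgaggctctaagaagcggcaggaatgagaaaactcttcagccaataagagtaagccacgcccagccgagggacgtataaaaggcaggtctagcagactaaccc
FRG2B: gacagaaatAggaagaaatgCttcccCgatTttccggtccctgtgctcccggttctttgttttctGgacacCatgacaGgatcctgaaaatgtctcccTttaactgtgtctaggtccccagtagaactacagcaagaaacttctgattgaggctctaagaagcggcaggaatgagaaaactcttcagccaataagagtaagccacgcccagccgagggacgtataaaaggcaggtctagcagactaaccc
FRG2C: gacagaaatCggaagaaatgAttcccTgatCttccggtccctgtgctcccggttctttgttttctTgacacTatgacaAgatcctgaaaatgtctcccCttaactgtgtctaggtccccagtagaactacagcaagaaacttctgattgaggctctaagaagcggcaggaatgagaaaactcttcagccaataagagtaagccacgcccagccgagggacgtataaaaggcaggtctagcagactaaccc

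FRG2 and FRG2B, after the shift by 1 base, had 0 mismatches over the 250 bases compared. No read was counted in either of the 2 windows of FRG2, while the 2 windows of FRG2B reached 16 reads in a library and those of FRG2C reached 47. The 2 windows of each gene overlap almost fully. Windows around 250 bases that are the same on chromosomes 4 and 10 were thus without counts on chromosome 4 and with some on chromosome 10. The windows are 2000 bp wide and the rest of their sequence was not compared, so the reads cannot be placed in the shared bases.

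Depth varied more among inputs than among ChIP libraries. The TSS table held 2153836 to 3696942 reads in the 7 ChIP libraries and 3267811 to 9238282 in the 8 inputs, and the same libraries held 217472 to 366633 ChIP reads and 111132 to 238490 input reads over peak regions. Windows overlap, so a read can be counted more than once. Levels are given as counts per 1000000 (CPM) of the library total of the same table, scaled by trimmed mean of M-values (TMM) factors, so CPM of the 2 tables cannot be set against each other. The windows of LEO1 itself held 8 to 21 reads in ΔLEO1 and wild-type ChIP libraries alike at the main start, and do not check the genotype.

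Most copies in both arrays had no reads at all. At 4q35 the TSS table lists 15 windows at 12 distinct positions for DUX4 and 9 DUX4-like genes. No read fell in 7 of the 12 positions in any of the 15 libraries, namely DUX4L9, DUX4L7, DUX4L6, DUX4L5, DUX4L1, DUX4L3 and DUX4L2, and a count of 0 allows up to 3 reads. At 10q26, 12 of 14 windows had no read. All 7 distinct windows on 3 alternate contigs of 4q had none either. The 18 windows on 7 other chromosomes all had reads.

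Windows without reads were not particular to DUX4. Of 237274 distinct windows, 26175 (11.03%) had no read in the 15 libraries, and these took in all 18894 windows on alternate contigs. On the primary chromosomes 3.33% of 218380 windows had none. Among primary windows whose gene symbol also has an alternate-contig window the share was 44.9%, against 1.24% for the rest. Of the DUX4 symbols only DUX4, DUX4L2, DUX4L8 and DUX4L9 have an alternate-contig window. The empty windows of the array beside FRG2B belong to the rest, as do those of DUX4L7, DUX4L6, DUX4L5, DUX4L1 and DUX4L3. The primary windows of DUX4L8 and DUX4 had reads. The share of 44.9% is thus not the background for most of the empty primary DUX4 windows. The median primary window held 223 reads summed over the 8 inputs. How reads that match several places were handled is not given in the sources used here, and its part in the zeros was not tested.

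The neighbours of the array showed the same gaps. FRG1, a gene proximal to the array, had no read in 5 of 7 distinct windows, and its divergent transcript FRG1-DT in 9 of 10. These empty windows all start between 189938741 and 189940024 and overlap each other, so they cover 1 short stretch and not separate places. TUBB7P, a tubulin pseudogene, had none in its only window. DBET, a noncoding transcript described from the D4Z4 array, reached 12 reads in a library in its only window. AGGF1P1 on 4q and AGGF1P2 on 10q, pseudogenes at matching places beside the arrays, reached 15 and 11 reads.

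**Figure D1:**
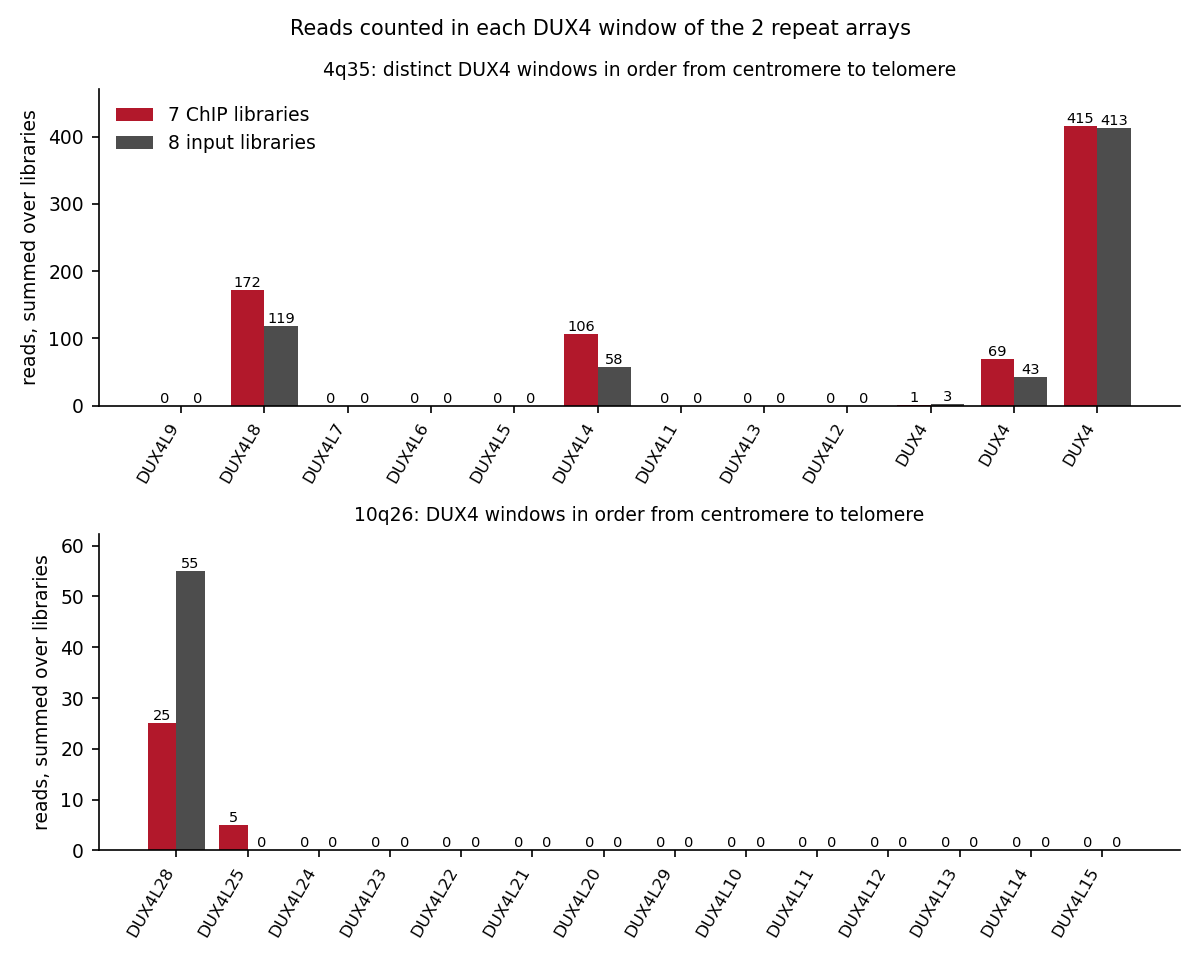
Reads counted in each distinct DUX4 window, summed over 7 ChIP libraries (red) and 8 input libraries (grey), for the 4q35 array (top) and the 10q26 array (bottom), in order along the chromosome and not to distance. Reads lie in 5 of 12 windows at 4q35 and in 2 of 14 at 10q26.

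Reads at 4q35 lay in a few windows. DUX4L8 (chr4:190066935-190068935) and DUX4L4 (chr4:190080118-190082118) are DUX4-like copies inside the array. The symbol DUX4 itself has 3 distinct windows. The window centred on the RefSeq start of DUX4 (chr4:190172774-190174774), which 4 transcripts share, held 1 read in wild-type ChIP library A in 0.1% serum, 1 in wild-type input B and 2 in ΔLEO1 input A in 10% serum, and 0 in the other libraries. The window that starts inside the gene (chr4:190174193-190176193) overlaps it, and held 5 to 15 reads in the ChIP libraries and 2 to 9 in the inputs. The most distal window (chr4:190181117-190183117) held 46 to 72 ChIP and 28 to 62 input reads, the most of the array. The start of DUX4 itself was therefore almost uncounted, and values given for DUX4 come from the other 2 windows.

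At 10q26 reads lay in DUX4L28 and DUX4L25, the 2 windows nearest the centromere. DUX4L28 (chr10:133663429-133665429) held 0 to 8 reads in the ChIP libraries and 4 to 10 in the inputs. DUX4L25 held 5 reads in all ChIP libraries together and 0 in the inputs. Neither passed the filter on low counts, so nothing was tested at 10q26.

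Where DUX4 windows had reads, ChIP mostly exceeded input. The ratio of mean ChIP CPM to mean input CPM, with a pseudocount of 0.5 counts, had a median of 3.09 over the 25 windows with reads and ranged from 1.29 to 5.50, while the median of 211099 windows with reads was 0.972. The highest ratio, at DUX4L25, and the lowest, at the DUX4 start window, rest on 5 reads or fewer. The ratio was 4.87 at DUX4L4, 4.14 at the DUX4 window inside the gene, 4.10 at DUX4L8 and 2.7 at the most distal DUX4 window. These lay above 99.97%, 99.8%, 99.8% and 96.0% of windows with reads. Inputs were low at DUX4L4, the DUX4 window inside the gene and DUX4L8, with means of 1.04, 0.801 and 2.09 CPM. These lay above only 2.12%, 1.88% and 4.92% of windows with reads, so their ratios have small denominators. The input of the most distal window lay above 99.9%.

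**Figure D2:**
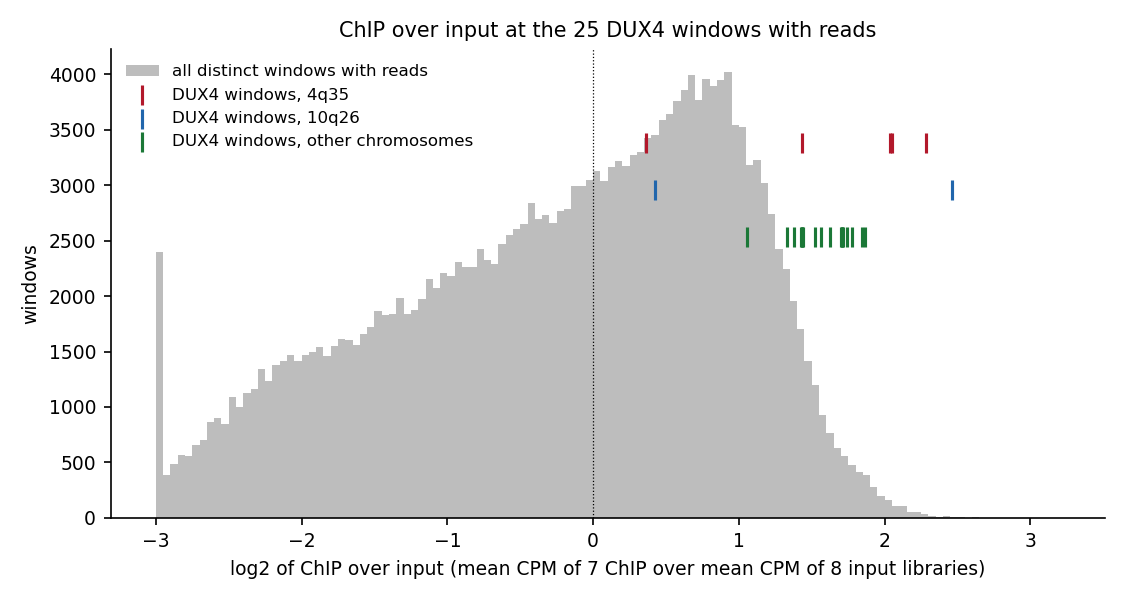
Distribution over all distinct windows with reads of the log2 ratio of ChIP to input CPM (grey, very low ratios drawn at the left edge), with DUX4 windows at 4q35 (red), 10q26 (blue) and on other chromosomes (green) as ticks at a height that carries no value. The median of all windows is a ratio of 0.972, and all 25 DUX4 windows lie to the right of it, the lowest above 62.1% of windows.

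The copies with the most reads lay outside the arrays. Mean ChIP levels of the 18 windows there ran from 4.31 CPM at DUX4L31 to 142 CPM at DUX4L26, and 10 of the 18 were below the 21.0 CPM of the most distal DUX4 window. DUX4L26 (chr3:75667931-75669931) had the highest mean ChIP level of all DUX4 windows, with an input level of 43.4 CPM, against medians of 3.58 in ChIP and 4.13 in input over all windows with reads. DUX4L34 on chromosome 20 (chr20:29410600-29412600) and DUX4L50 on chromosome 9 (chr9:63817462-63819462) had 38.7 and 37.5 CPM in ChIP and 11.6 and 14.0 CPM in input. DUX4L16, DUX4L17, DUX4L18 and DUX4L19 on chromosome Y had mean levels of 49.9 to 87.8 CPM in ChIP and 15.2 to 25.1 CPM in input. The inputs of these windows, and that of the distal DUX4 window at 7.74 CPM, lay above 99.9% of windows. High counts here were thus a feature of input DNA as well as of ChIP, and the ratio at DUX4L26 (3.26) was lower than at DUX4L8 or DUX4L4. DUX4L46 and DUX4L47 on chromosome 16 overlap and share reads.

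The levels at 4q35 were then compared between genotypes in quiescent cells. DUX4L8 had 9.97 and 8.46 CPM in wild-type ChIP libraries A and B in 0.1% serum. In ΔLEO1 cells it had 4.53 and 3.56 CPM, from 17 and 9 reads. The 2 genotypes did not overlap, ΔLEO1 being lower by 1.05 ± 0.30 on the log2 scale (fitted difference ± SE), which was not called (edgeR quasi-likelihood test, unadjusted p = 0.00052, adjusted p = 0.081). The inputs were ordered the same way. They held 2.25 and 3.05 CPM in wild type against 1.31 and 1.29 CPM in ΔLEO1 cells, a log2 difference of -0.88 ± 0.37. The ratio of ChIP to input overlapped between genotypes, at 3.72 and 3.18 in wild type and 3.38 and 2.72 in ΔLEO1 cells.

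DUX4L4 had 6.95 and 2.94 CPM in wild-type ChIP in 0.1% serum and 3.46 and 2.77 CPM in ΔLEO1 ChIP. The groups overlapped, and the log2 difference of -0.59 ± 0.36 was not called. Without wild-type library A it was 0.084.

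The DUX4 window inside the gene had 3.63 and 3.31 CPM in wild type and 2.40 and 1.98 CPM in ΔLEO1 cells, a log2 difference of -0.52 ± 0.41 that was not called. Its inputs were 1.13 and 1.31 CPM against 0.750 and 0.471 CPM. With the input difference taken off, the ChIP difference was 0.13.

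The most distal DUX4 window had 17.2 and 20.6 CPM in wild type and 19.2 and 18.2 CPM in ΔLEO1 cells. The log2 difference was 0.00 ± 0.18, and the inputs had 8.72 and 8.71 CPM against 7.31 and 7.30 CPM. Of the 4 windows tested at 4q35, the lower values in ΔLEO1 cells were thus at the 3 with fewest reads.

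**Figure D3:**
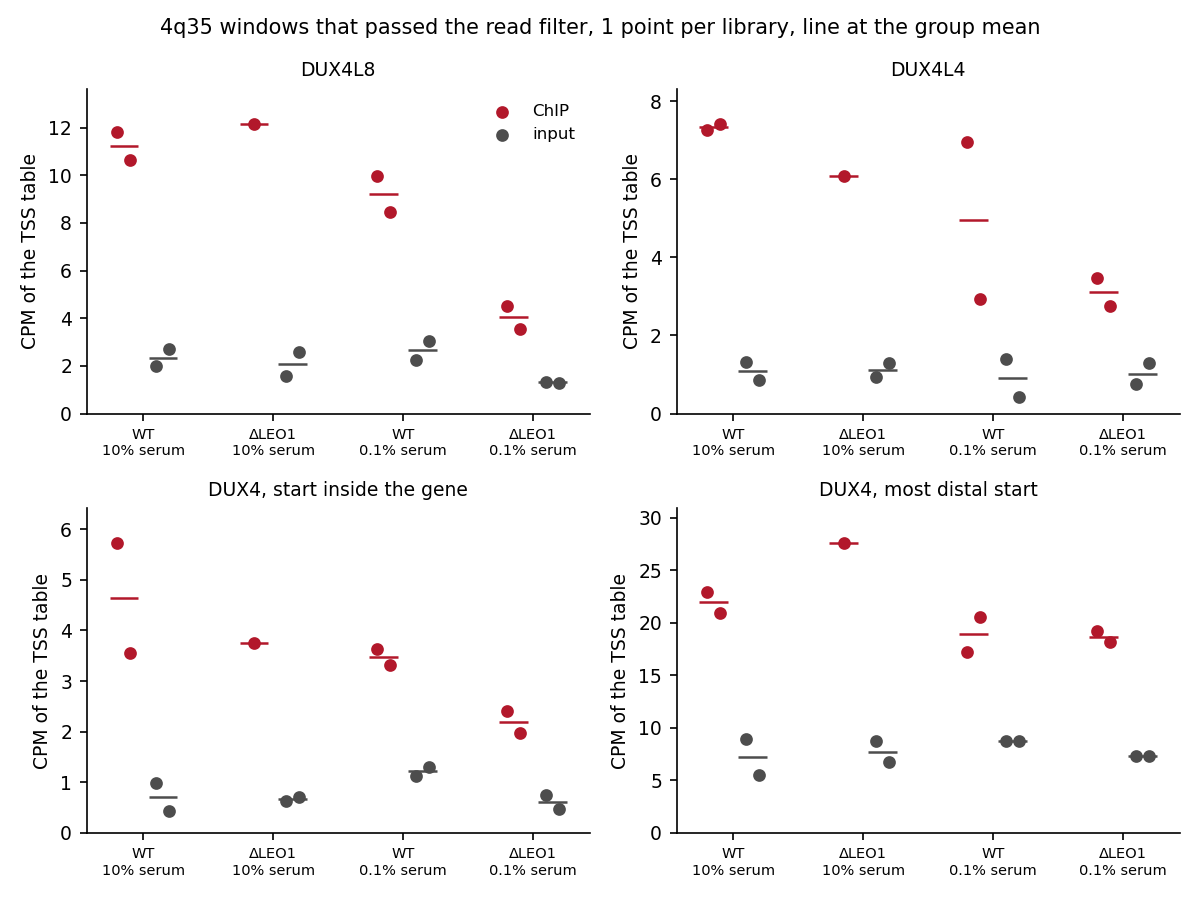
CPM of the TSS table in each ChIP (red) and input (grey) library for the 4 windows at 4q35 that passed the filter, with a line at each group mean; ΔLEO1 ChIP in 10% serum has 1 library. DUX4L8 shows both ΔLEO1 ChIP libraries in 0.1% serum, at 4.53 and 3.56 CPM, below the other ChIP libraries.

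In 10% serum no window at 4q35 was called by genotype. DUX4L8 had 11.8 and 10.6 CPM in wild-type ChIP and 12.2 CPM in the ΔLEO1 library, a log2 difference of 0.11 ± 0.33. The distal DUX4 window had 22.9 and 21.0 CPM in wild type and 27.6 CPM in ΔLEO1 cells, at 0.33 ± 0.23. Its inputs were 8.91 and 5.53 CPM in wild type and 8.76 and 6.72 CPM in ΔLEO1 cells. The DUX4 window inside the gene had 5.73 and 3.55 CPM in wild-type ChIP, 3.74 CPM in the ΔLEO1 library, 0.990 and 0.433 CPM in wild-type input and 0.626 and 0.707 CPM in ΔLEO1 input. In both windows the ΔLEO1 input values lay between the wild-type values. DUX4L4 and the DUX4 window inside the gene had log2 differences of -0.25 ± 0.42 and -0.24 ± 0.51. The difference between the genotype effects in the 2 sera was tested for every member. Of the 22 tested windows 0 were called in ChIP by edgeR, 6 had an unadjusted p under 0.05, and the lowest adjusted p, at DUX4L8, was 0.69. Of all 159524 windows 0% were called in this test and 5.65% had an unadjusted p under 0.05.

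By serum no window at 4q35 was called. In wild-type cells the 4 windows had log2 differences between -0.46 and -0.21 in 0.1% against 10% serum. In ΔLEO1 cells they had differences between -1.41 and -0.54, against the 1 library in 10% serum. DUX4L8 had the largest, -1.41 ± 0.38 (adjusted p = 0.12). The comparisons by genotype and by serum share libraries, so they are not separate evidence. The filter on low counts could keep a window on the level of 1 library. The DUX4 window inside the gene passed it only through libraries in 10% serum, where it was highest. Its lower values in 0.1% serum were thus favoured by the filter.

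The far end of chromosome 4 also differed by genotype outside the array. Summed over 588 distinct windows that start between 180000000 and 190000000, wild-type ChIP libraries in 0.1% serum had 2810 and 2831 CPM and ΔLEO1 libraries 2085 and 2101 CPM. The log2 ratio of the means was -0.43 in ChIP and -0.48 in input, and in 10% serum it was -0.21 in both. This stretch was chosen after its values were seen. The sum over the 12 DUX4 windows on chromosome 4 in 0.1% serum had a log2 ratio of -0.39 in ChIP and -0.40 in input, close to the stretch beside it. In 10% serum that sum had a ratio of 0.14 in ChIP and 0.06 in input. Lower counts at the array in quiescent ΔLEO1 cells thus came with lower input counts over the neighbouring 10 megabases, and the part of this in the ChIP differences was not tested beyond the fit with the input difference taken off.

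On the other chromosomes some DUX4 copies were called. In 0.1% serum 5 of the 22 tested windows were lower in ΔLEO1 ChIP and 0 were higher, against 0.266% of 159524 windows called lower and 0.347% called either way. These were DUX4L34, DUX4L50, DUX4L26, DUX4L17 and DUX4L19. All are DUX4-like copies outside the arrays, and 4q35 had none. The 22 tested windows are those with enough reads, and 29 of the 51 positions were not tested.

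DUX4L34 had 44.7 and 40.1 CPM in wild-type ChIP in 0.1% serum and 28.0 and 27.7 CPM in ΔLEO1 ChIP. It fell by 0.60 ± 0.14 on the log2 scale (adjusted p = 0.016). DUX4L50 had 43.5 and 37.9 CPM against 27.2 and 27.3 CPM, and fell by 0.58 ± 0.14 (adjusted p = 0.030). In both, the ΔLEO1 libraries lay well below the wild-type libraries. DUX4L26 had 137 and 145 CPM against 110 and 111 CPM, and fell by 0.35 ± 0.08 (adjusted p = 0.012). DUX4L17 and DUX4L19 on chromosome Y fell by 0.48 ± 0.10 (adjusted p = 0.0032) and 0.41 ± 0.10 (adjusted p = 0.018). In input the same 5 windows had log2 differences between -0.14 and -0.04. Of 20 tested windows 0 were called in input by edgeR, as were 0% of 238006 windows, 1 had an unadjusted p under 0.05, and DESeq2 also called 0.

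The ChIP calls depended on single libraries. Leaving out any of the 4 libraries compared left 1 library in a group. Fewer windows were then called, among the DUX4 windows and among all windows. The 5 windows kept log2 differences between -0.66 and -0.30. DESeq2 called 0 DUX4 windows and 0 of all 159524 windows. The fit with the input difference taken off called 0 DUX4 windows, and 3 higher and 24 lower of 237580 windows. The loss of calls was thus not particular to the DUX4 windows.

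In 10% serum these 5 windows had log2 differences between -0.14 and -0.06, and 0 of 22 windows were called by edgeR or DESeq2, against 0.0295% of all windows by edgeR, while 4 had an unadjusted p under 0.05 in edgeR. The 5 windows were picked by their calls in 0.1% serum. Over the 18 tested windows outside the arrays the median log2 difference by genotype in 10% serum was -0.29, with 16 below 0. Over all windows it was -0.02. DUX4L26 had 176 and 155 CPM in wild-type ChIP and 158 CPM in the ΔLEO1 library, and DUX4L34 46.6 and 43.2 CPM against 40.7 CPM. The inputs of DUX4L26 lay between 39.1 and 48.5 CPM and those of DUX4L34 between 9.75 and 13.2 CPM over the 8 libraries. In ΔLEO1 cells 4 windows were lower in 0.1% than in 10% serum, against 0.0508% of all windows called lower and 0.0633% either way: DUX4L26 fell by 0.51 ± 0.10, DUX4L18 by 0.66 ± 0.15, DUX4L17 by 0.57 ± 0.13 and DUX4L19 by 0.53 ± 0.13, with adjusted p between 0.0033 and 0.040. This rests on 1 library in 10% serum, and leaving out either library in 0.1% serum left 0 called. In wild-type cells 0 of 22 windows were called by serum in edgeR or DESeq2, against 0.27% of all windows in edgeR, although 11 had an unadjusted p under 0.05, as did 15000 of 159524 windows.

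Groups of libraries that did not overlap were frequent among the tested windows in ChIP. In 0.1% serum the ΔLEO1 pair was entirely below the wild-type pair in 14 of 22 windows and entirely above it in 1, against 21.1% and 19.7% of all windows. In wild-type cells both libraries in 0.1% serum lay below both in 10% serum in 16 of 22 and above in 0, against 19.6% and 20.1%. In input the genotype counts in 0.1% serum were 7 below and 1 above of 20, against 18.5% and 18%, and the serum counts in wild type 1 and 9 of 20, against 20.8% and 21.1%. In 10% serum the 1 ΔLEO1 ChIP library lay below both wild-type libraries in 14 of 22 windows and above both in 3. Of all 159524 windows 58460 were so ordered below and 56723 above. Read against these shares, the DUX4 windows lay on the low side in ChIP in ΔLEO1 cells in both sera and in quiescent wild-type cells. These levels are relative to library totals. By genotype 20 tested windows had log2 differences below 0 in 0.1% serum and 18 in 10% serum, and 2 and 4 above. Library sizes taken from the other table split them, 12 below and 11 above in each serum. By serum in wild type 18 were below 0 and 5 above with the same sizes. The paper scaled to added fly chromatin and reports many more regions with raised than with reduced H3K9me2 in ΔLEO1 cells in 0.1% serum. The windows are copies of related sequence, so they are not independent of each other. The median log2 difference by genotype in 0.1% serum was -0.27 over the 18 tested windows outside the arrays, and -0.01 over all windows.

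**Figure D4:**
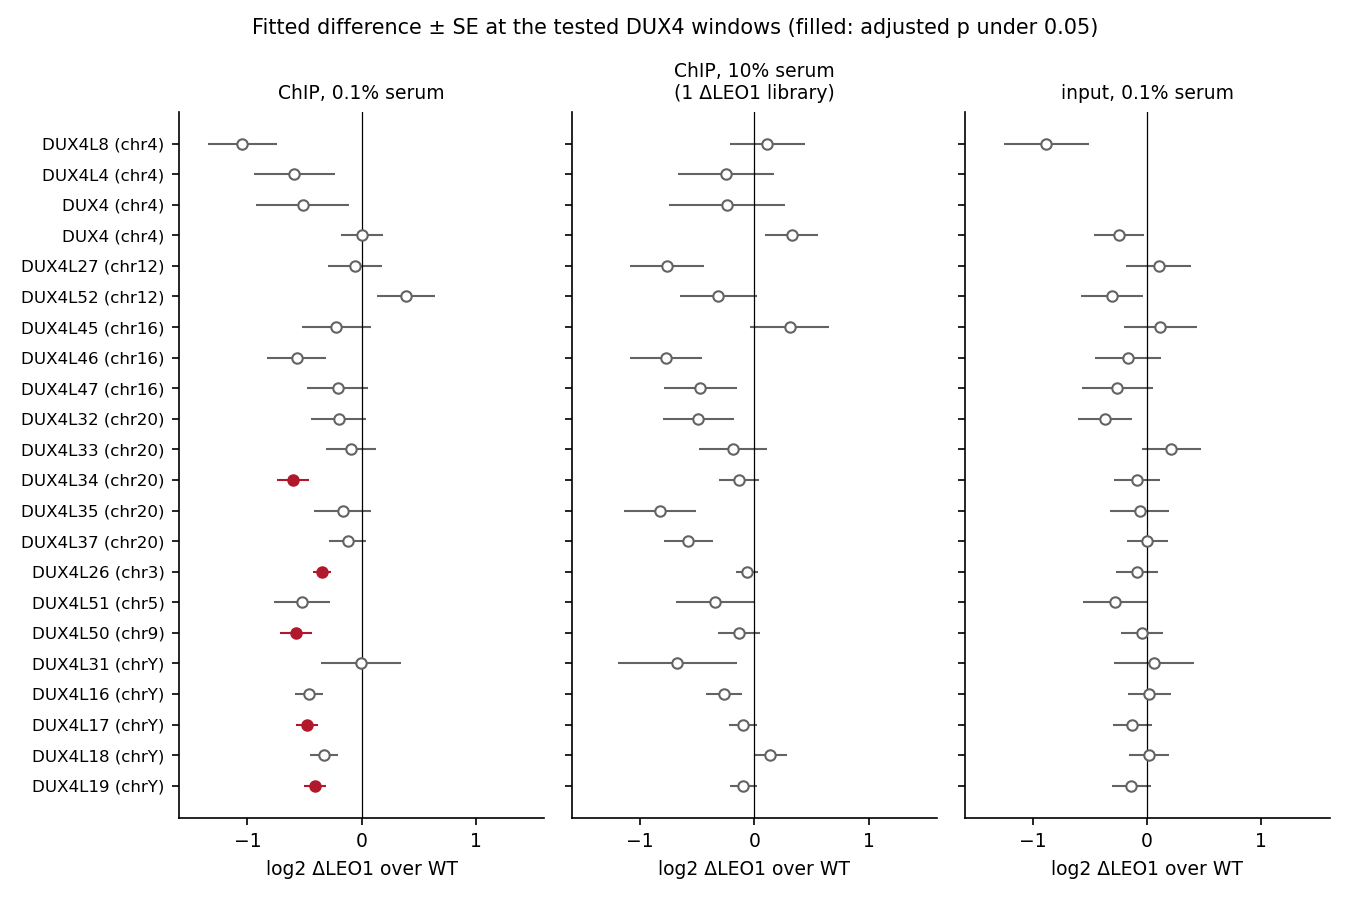
Fitted log2 difference (ΔLEO1 over wild type, bars ± SE) at each tested DUX4 window in ChIP in 0.1% serum, ChIP in 10% serum and input in 0.1% serum; filled points have an adjusted p under 0.05 in edgeR. In ChIP in 0.1% serum 5 windows are filled, none of them on chromosome 4, and DUX4L8 lies at -1.05 in ChIP and -0.88 in input.

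The 2 peak regions lie between the DUX4L copies and DUX4. The first (chr4:190118337-190118876) is annotated as an AluY element, a short interspersed repeat. In ChIP in 0.1% serum it had 34.9 and 44.2 CPM in wild type and 38.4 and 32.5 CPM in ΔLEO1 cells, and in 10% serum 44.9 and 35.6 CPM in wild type and 67.8 CPM in the ΔLEO1 library. Its inputs lay between 21.2 and 74.0 CPM, from 4 to 15 reads. Its ratio of ChIP to input was 0.879, below the median of 0.981 over all peak regions, and its log2 difference by genotype in 0.1% serum was -0.11 ± 0.48. Its groups overlapped in 0.1% serum.

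The second (chr4:190122364-190123344) is annotated as an (AGGGTT)n repeat, which is the telomere repeat unit. Telomere repeats also occur as short internal stretches near chromosome ends, and reads from them can match many places. The peak had 641 and 689 CPM in wild-type ChIP libraries in 0.1% serum and 384 and 362 CPM in ΔLEO1 libraries. In 10% serum it had 584 and 715 CPM in wild type and 425 CPM in the ΔLEO1 library. All 3 ΔLEO1 ChIP libraries lay below all 4 wild-type ChIP libraries, and in 0.1% serum alone the pairs were so ordered in 19.4% of peak regions. Its inputs lay between 222 and 469 CPM with no such order, and were 349 and 233 CPM in wild type and 339 and 338 CPM in ΔLEO1 cells in 0.1% serum, and 222 and 407 CPM against 469 and 265 CPM in 10% serum.

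In 0.1% serum the peak fell by 0.82 ± 0.17 on the log2 scale in ΔLEO1 cells (adjusted p = 0.012), against 0.0497% of 16092 peak regions called lower. In 10% serum the log2 difference was -0.61 ± 0.22 (adjusted p = 0.59), and 0% of regions were called by edgeR or DESeq2, although 1127 had an unadjusted p under 0.05 in edgeR. The test of the difference between sera did not call it. By serum it had 0.03 ± 0.16 in wild-type cells. The ratio of ChIP to input was 1.07 to 1.15 in the 3 ΔLEO1 libraries and 1.85 to 2.35 in the 4 wild-type libraries. The ratio was thus closer to the median of 0.981 over all peak regions in ΔLEO1 cells than in wild type. Both CPM are shares of the reads over peak regions, so a ratio near 1 does not mean that ChIP equalled input. The ratio at this peak pooled over all libraries, 1.65, lay above that of 99.4% of peak regions.

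The size of this difference held better than its call. Leaving out any of the 4 libraries compared gave log2 differences between -0.86 and -0.77 with adjusted p from 0.11 to 0.37, so none of these was called. DESeq2 gave -0.82 (adjusted p = 1.00), and taking off the input difference gave -1.02 ± 0.35 (adjusted p = 0.45). Each of these 2 fits called 0 of all 16092 peak regions in this comparison. Over the 47 peak regions that start between 180000000 and 190000000 on chromosome 4, the summed level had a log2 ratio of -0.58 in ChIP and -0.15 in input in 0.1% serum. ChIP over the neighbouring regions was thus lower in ΔLEO1 cells as well, and its part in the fall at the repeat was not tested.

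The other telomere-type repeat peaks were examined after the values were seen. The peak table holds 10 of them on other chromosome ends. In ChIP in 0.1% serum all 10 had a log2 difference below 0 in ΔLEO1 cells, between -0.90 and -0.15 with a median of -0.31, and 0 were called by edgeR, while 4 had an unadjusted p under 0.05. Of all 16092 peak regions 10 were called in this comparison and 8.33% had an unadjusted p under 0.05. In 10% serum 8 of 10 were below 0. In input in 0.1% serum 8 of them could be tested and all 8 were below 0, between -0.71 and -0.01 with a median of -0.27, while the 4q peak had an input difference of 0.21 ± 0.29. Because their sequence is shared, these peaks are not independent of each other.

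**Figure D5:**
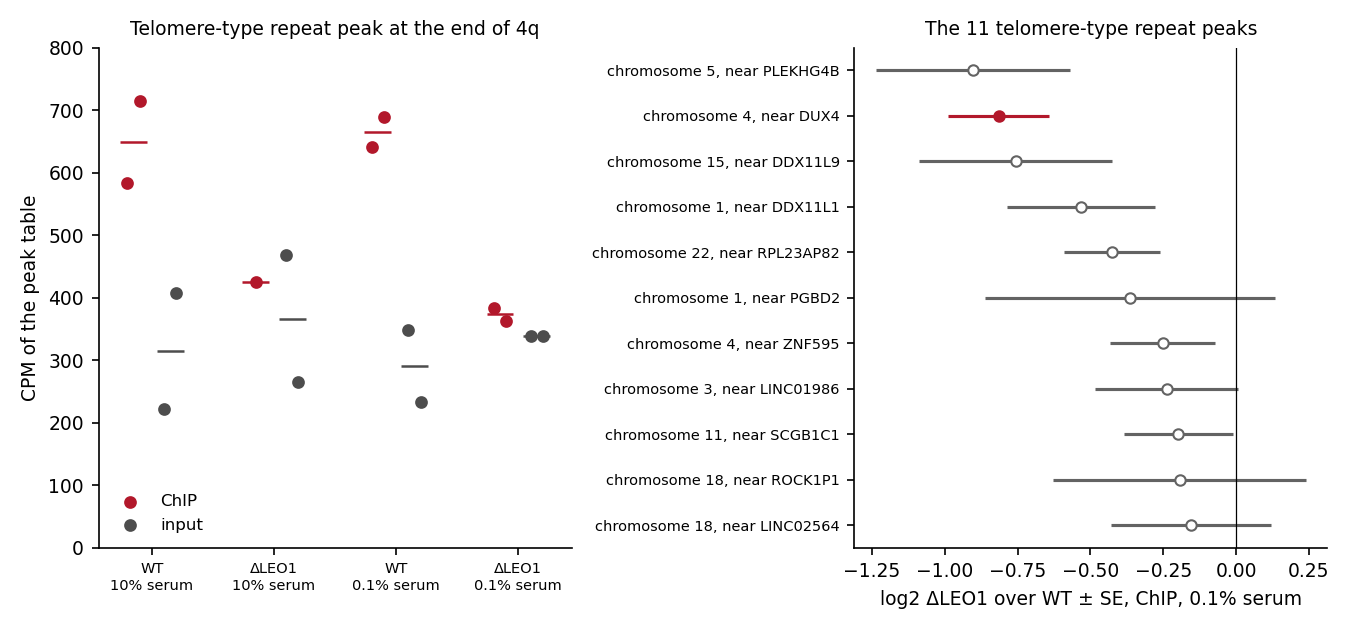
Left, CPM of the peak table in each ChIP (red) and input (grey) library at the telomere-type repeat peak near DUX4, with a line at each group mean. Right, log2 difference ± SE (ΔLEO1 over wild type, ChIP, 0.1% serum) of the 11 telomere-type repeat peaks, named by the nearest gene, where the filled red point is the peak at the end of 4q at -0.82.

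The summed signal of the chromosome 4 windows followed that of many other genes. Over the 15 libraries, log2(CPM + 1) of the sum was most like GAPDHP60 (Pearson r = 0.987), MLPH (0.985), ADAMTS20 (0.983), FAM86MP (0.982) and H3Y1 (0.982), among 36462 genes. Within the 7 ChIP libraries alone r was 0.904, 0.917, 0.966, 0.872 and 0.855 for the same genes in that order. Over the 15 libraries 12.1% of genes had an r above 0.9. The libraries fall into ChIP and input, and the part of this division in the likeness was not tested.

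Genes around and downstream of DUX4 were described by 4 lists, each gene by its window with the lowest p. In ChIP by genotype in 0.1% serum, 0.765% of all 32793 genes tested had a called window and 19.7% had a window with an unadjusted p under 0.05, and a gene with more windows has more chances of either. Of 12 neighbours on distal 4q only 3 could be tested in ChIP, and 0 were called in 0.1% serum by genotype. These were TRIML1, TRIML2 and ZFP42, a gene known from pluripotent cells, with log2 differences of -0.52 ± 0.26, -0.67 ± 0.24 and -0.57 ± 0.28 at their best windows. All had an unadjusted p under 0.05. Their windows lie in the stretch of chromosome 4 summed above, so they share its reads and are not separate from it. In input TRIML1 had a log2 difference of -0.75 ± 0.30 at the same window. The median over the windows of the list was -0.45 in ChIP and -0.41 in input. Of 10 counterparts on distal 10q all were tested and 0 were called. SYCE1 had -0.57 ± 0.26 and TUBGCP2 had 1.28 ± 0.49 at their best windows, with an unadjusted p under 0.05. The list's median was -0.22 in ChIP and 0.21 in input.

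Of 33 genes known to be switched on by DUX4, 29 were tested and 0 were called in any of the 4 ChIP comparisons by edgeR, against 0.765% and 0.0427% of all genes by genotype in 0.1% and 10% serum and 0.595% and 0.18% by serum in wild-type and ΔLEO1 cells. In 0.1% serum 5 of the 29 had a window with an unadjusted p under 0.05, against 19.7% of all genes. ZSCAN4, a gene of the early embryo that DUX4 activates, had a log2 difference of -1.01 ± 0.27 (adjusted p = 0.057), H3Y2 -0.86 ± 0.27 and PRAMEF2 -0.66 ± 0.31, while TRIM48 had 0.81 ± 0.32 and KHDC1L 0.68 ± 0.26. The median over the list was 0.02, so target genes lay on both sides of 0. In input by genotype in 0.1% serum the same H3Y2 window had -0.59 ± 0.29. H3Y2 was the only 1 of 29 target genes with an unadjusted p under 0.05 there.

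Of 25 genes for factors that keep D4Z4 silent, 23 were tested. In 0.1% serum 0 were higher and 1 was lower in ΔLEO1 cells, against 0.765% of all genes called either way. A window of EHMT1, which encodes an enzyme that adds methyl groups to H3K9, fell by 1.26 ± 0.29 (adjusted p = 0.012), and the median over the list's 212 windows was -0.05. EHMT1 has several windows and its best is given, and 10 of the 23 genes had a window with an unadjusted p under 0.05, against 19.7% of all genes.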

How the data were processed

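The 2 tables that the authors deposited hold unnormalized counts of reads, per TSS window and per merged peak region, with a column for each of 16 libraries. The submitters' processing notes list genome builds hg38 and dm6 and the tools bcl2fastq 2.20.0.422, STAR 2.7.10a and HOMER, without roles. The study's methods name csaw for counting ChIP reads, in short windows stepped along the genome and joined where they overlapped, and describe counts within 1 kb on either side of annotated starts. How multiply matching or duplicate reads were handled, and how the deposited peak regions were called, are not given in the sources used here. The study scaled to fly chromatin added to each sample, which was not used here, so a change of the mark across all regions cannot be seen.

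Each table was fitted whole with edgeR 4.0.16 in R 4.3.3 (quasi-likelihood F-test, two-sided, filterByExpr with a minimum count of 10, TMM, prior count 2, 1 coefficient per group), separately for 7 ChIP and 8 input libraries. Benjamini-Hochberg adjusted p-values under 0.05 were called. Comparisons were ΔLEO1 against wild type in each serum and 0.1% against 10% serum in each genotype. The 2 comparisons of a genotype or serum share libraries.

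All windows of the symbol DUX4, the other windows and peaks with the highest ChIP level and every called window were named, and neighbour, counterpart, repressor and target genes only where 5 or fewer of a list had an unadjusted p under 0.05, or were called. The members and lists were chosen with earlier results of these data known. Alternatives were no TMM, library sizes taken from the other table, no filter, DESeq2 1.42.0, distinct windows, the replicate letter as a block, leaving out each library, all 8 ChIP libraries, and the input difference taken off in a fit of 15 libraries. Intervals and the limit for a count of 0 cover counting error only.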

Additional observations from a re-analysis of the deposited data

How the results depend on the processing

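Leaving out 1 library at a time gave 0 to 3 called DUX4 windows by genotype in ChIP in 0.1% serum (5 with all libraries), 0 by serum in ΔLEO1 cells (4 with all libraries) and 0 peak regions by genotype in 0.1% serum (1 with all libraries). DESeq2, all 8 ChIP libraries and the input difference taken off each gave 0 in these 3 comparisons. DESeq2 and all 8 ChIP libraries also called 0 over all windows and peak regions there. The input difference taken off called 3 higher and 24 lower of 237580 windows by genotype, and 0 over all features in the other 2. Calls over all features also fell with a library left out. These losses were thus not particular to the DUX4 regions. Library sizes taken from the other table gave 0 windows by genotype and 0 by serum. They shifted the median of all windows by genotype in 0.1% serum from -0.01 to 0.27 on the log2 scale, and gave 145 lower and 2152 higher calls over all windows in place of 424 and 130, so directions are relative to the library totals. By serum in ΔLEO1 cells, library totals without TMM gave 1 and no filter gave 1. The labels' replicate letters did not pair the libraries (correlations of deviations from -0.005 to 0.108). With the letter as a replicate block the counts were 2 windows by genotype in 0.1% serum and 0 by serum in ΔLEO1 cells.

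Under totals of the other table the log2 ratios of summed ChIP levels were, for the chromosome 4 windows, -0.075 and 0.36 by genotype in 0.1% and 10% serum and -0.13 and -0.57 by serum in wild-type and ΔLEO1 cells; for the windows on other chromosomes, -0.063, 0.042, -0.093 and -0.20; and for the peak regions, -1.10 and -0.71 by genotype and -0.47 by serum in ΔLEO1 cells. The other directions that turned were of differences that were not called. With the same totals, differences by genotype in 10% serum became 0.15 at DUX4L26, 0.11 at DUX4L17, 0.076 at DUX4L34, 0.076 at DUX4L50 and 0.12 at DUX4L19, and by serum in wild type 0.085 at DUX4L34 and 0.078 at DUX4L50. Leaving out a library gave -0.98 to 0.084 at DUX4L4 by genotype in 0.1% serum, -0.13 to 0.043 at DUX4L26, -0.20 to 0.034 at DUX4L17, -0.014 to 0.33 at DUX4L18 and -0.29 to 0.059 at DUX4L50 by genotype in 10% serum, -0.27 to 0.10 at DUX4L50 by serum in wild type, and -0.12 to 1.29 at the AluY peak in input by genotype in 0.1% serum. All 8 ChIP libraries gave -0.11 at DUX4L18 by genotype in 10% serum and 0.15 at the telomere-type repeat peak by serum in ΔLEO1 cells, and the input difference taken off gave 0.13 at the DUX4 window inside the gene by genotype in 0.1% serum. The cause was not tested.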
